A study of Mus musculus with 6 samples.

Results

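Glutathione S-transferases were followed through 10 genes of a mouse glioblastoma stem cell line: Gsta4 of the alpha class, Gstm1 and Gstm5 of the mu class, Gstp1 of the pi class, Gstt1, Gstt2 and Gstt3 of the theta class, Gstz1 of the zeta class, and the microsomal transferases Mgst1 and Mgst3. All non-control probes whose RefSeq transcript carries one of these symbols were taken, 14 probes of 56593 in all, and the 10 genes are 10 of 14151 genes tested. 6 of the genes had 1 probe and 4 had 2. The 14 probes all passed the filter on dim signal, and 13 were well above background on all 6 arrays. The genes were chosen by family with their knockdown against control log2 fold changes known, in which several transferases were higher. Their differences in that comparison are therefore given as a description, with standard errors and no test of their own.

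RNA was measured on 6 one-colour (Cy3) arrays, 3 from cells carrying a lentiviral non-target shRNA (control) and 3 from cells carrying a lentiviral shRNA against Ggct (knockdown). Per the labels, the line was derived from de novo mouse gliomas driven by an SB transposon. Its neurospheres were kept without serum, in medium with B27, N2, EGF and bFGF, and both groups share the line, the medium and the vector system. The sample titles name 1 line and 1 Ggct hairpin, so effects of the hairpin other than loss of Ggct cannot be told apart from it. The titles also give 3 dates, each shared by 1 control and 1 knockdown sample. Nothing in the labels says more on separate cultures, so the spread between arrays may be technical. Ages and sexes of the mice of origin are not given in the sources used here.

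Glutathione S-transferases join the thiol of glutathione to electrophiles such as lipid aldehydes, drugs and reactive metabolites, and several also reduce organic peroxides. The cytosolic enzymes act as dimers and fall into classes named by Greek letters, with each class largely encoded by a gene cluster. The microsomal enzymes belong to an unrelated membrane family, MAPEG, which also includes enzymes of leukotriene and prostaglandin synthesis. Ggct encodes gamma-glutamylcyclotransferase, which acts on gamma-glutamyl peptides derived from glutathione, and the conjugates the transferases make are processed through the same gamma-glutamyl route. Many transferase promoters are known to respond to NRF2 through antioxidant response elements, and that of the rat pi-class gene to AP-1, the factor family of c-Jun, which the title of the series names.

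Upstream sequences are shown for 4 of the genes, Gstt1 and Mgst1 with larger differences between the groups and Gstp1 and Gstm5 with smaller ones. They were not picked by rank, since Gstt3 (0.88) differed more than Mgst1 (0.85) and Gstz1 (0.09) less than Gstm5 (0.27), as log2 fold changes. The RefSeq table of build GRCm38.p6 held promoters of 8 of the 10 genes in 12 windows, each from 250 bases before to 50 bases after a gene start. The other two are Gsta4 and Gstt2. 3 motifs were searched on both strands: the core antioxidant response element TGACNNNGC, the AP-1 site TGANTCA and the xenobiotic response element core GCGTG. A single stretch can match the first pair together where TGACTCA runs on into GC. Below, the 250 bases before the start are printed 5′ to 3′ on the gene's strand, with the antioxidant and AP-1 matches in capitals.
Gstp1 (chr19:4037913-4038162, minus strand): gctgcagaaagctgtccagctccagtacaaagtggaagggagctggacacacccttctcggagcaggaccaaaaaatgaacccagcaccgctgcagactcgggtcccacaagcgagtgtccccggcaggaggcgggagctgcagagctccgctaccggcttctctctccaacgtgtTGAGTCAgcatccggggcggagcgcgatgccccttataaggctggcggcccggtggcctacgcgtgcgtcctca
Gstm5 (chr3:107895604-107895853, plus strand): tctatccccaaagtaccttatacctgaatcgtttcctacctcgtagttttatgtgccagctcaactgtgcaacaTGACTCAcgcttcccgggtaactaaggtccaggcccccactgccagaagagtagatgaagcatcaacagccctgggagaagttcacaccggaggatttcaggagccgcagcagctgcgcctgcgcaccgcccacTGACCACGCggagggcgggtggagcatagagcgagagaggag
Mgst1 (chr6:138140277-138140526, plus strand): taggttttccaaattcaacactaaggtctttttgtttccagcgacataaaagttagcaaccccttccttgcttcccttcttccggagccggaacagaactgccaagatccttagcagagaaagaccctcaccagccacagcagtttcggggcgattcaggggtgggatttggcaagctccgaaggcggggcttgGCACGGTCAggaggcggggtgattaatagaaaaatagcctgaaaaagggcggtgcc
Gstt1 (chr10:75797732-75797981, minus strand): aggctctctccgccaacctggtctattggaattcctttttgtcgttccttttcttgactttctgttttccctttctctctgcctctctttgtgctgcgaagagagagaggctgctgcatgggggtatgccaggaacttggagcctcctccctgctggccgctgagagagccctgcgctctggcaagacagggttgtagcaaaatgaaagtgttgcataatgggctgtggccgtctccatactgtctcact

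Gstp1 held an AP-1 match, TGAGTCA, that begins at position -74 from the start. Gstm5 held TGACTCA at position -176 and an antioxidant match, TGACCACGC, at position -42. Mgst1 held an antioxidant match on the opposite strand, read as GCACGGTCA on the printed strand, at position -56. Another Mgst1 window, at a different gene start and not printed, held no match to any of the 3 motifs. The xenobiotic core lay at position -13 in Gstp1 and, on the opposite strand, at -171 and -38 in Gstm5. It was absent from the printed Mgst1 window. Gstt1 held no match to any of the 3 motifs in its window. Over the 12 windows, 2 held the antioxidant motif, 2 the AP-1 motif and 5 the xenobiotic motif. The 5 belong to 4 of the 8 genes, since overlapping windows of Gstm1 held the same GCGTG. The windows of Gstm1, Gstt3, Gstz1 and Mgst3, which are not printed, held no antioxidant or AP-1 match. Every gene of the 8 with such a match is therefore among those printed, and the printed set is not typical of the 8. Of all 32851 windows in the table, 12.4%, 7.81% and 32.4% held these motifs. A match is a run of letters, and binding was not measured.

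Ggct itself was lower on every knockdown array, with a log2 signal relative to the array's 75th percentile of 3.32, 3.72 and 3.70 in control and 0.22, 0.91 and 0.70 in knockdown (replicates 1 to 3), or 12.7% of control. Values below are on that scale, on which 0 is the signal that 75% of probes of the array do not exceed. Levels of different probes are not compared, since probes differ in brightness for the same amount of RNA. The arrays had 54.5% to 56.8% of probes well above background and 0 saturated probes, and their number limits the precision. Of the stem cell markers, 8 of 10 were well above background on all 6 arrays, Nes and Sox2 among them, and Olig2 on none. Their summed linear signal, in multiples of the 75th percentile, was 233 to 271 in control and 218 to 269 in knockdown. Of the 8 tested, 3 were below control on all 3 knockdown arrays and 1 above, beside 14.6% and 17.8% of all genes. The log2 fold changes of these markers ran from -0.64 to 1.03, with a median of -0.22, and 0 passed the threshold. Of the markers of other cells, 3 of 9 for microglia and macrophages, 2 of 7 for endothelium, 3 of 6 for neurons and 3 of 6 for pericytes and fibroblasts were above background on all arrays, and 0 of the tested members of these lists passed the threshold. With the date pair as a block, 1 pericyte and fibroblast marker passed, Dcn, named after its value was seen (log2 fold change 0.84). The summed signal of that list was 16.3 to 25.5 in control and 16.5 to 24.6 in knockdown, and its part in the results was not tested. The microglia and macrophage markers above background on all arrays were Itgam, Csf1r and Cd68, with summed signals of 11.3 to 17.7 in control and 11.3 to 14.3 in knockdown. Of that list 5 of 9, Ptprc, Aif1 and C1qa among them, were above background on no array. The neuronal markers on all arrays were Snap25, Syt1 and Tubb3 (7.72 to 12.1 and 7.34 to 9.27), and Rbfox3 was on none. Whether such cells were present was not tested. In bulk RNA, fewer cells that express a gene and less RNA per cell cannot be told apart.

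8 of the 10 transferase genes were higher on all 3 knockdown arrays than on any control array, and the other two, Gstp1 and Gstz1, overlapped between the groups. Of all genes tested, 17.8% lay above control on all 3 knockdown arrays in this way. In the limma fit over 14151 genes, 5 of the 10 passed an adjusted p below 0.05, all higher (Gsta4, Gstm1, Gstt1, Gstt2 and Mgst1), against 4.57% of all genes called higher, 2.84% called lower and 7.41% called in either direction. Because the genes were chosen with this comparison known, nothing is read from these shares. The median log2 fold change was 0.70 over the 10 genes and 0.02 over all genes. With the date pair as a replicate block, 3 of the 10 passed, Gsta4, Gstt1 and Gstt3, against 2.78% of all genes called higher. The calls depended on single arrays: 0 of the 10 passed when control replicate 1, control replicate 2 or knockdown replicate 3 was left out, 3 when it was control replicate 3, and 4 when it was knockdown replicate 1 or 2. Calls over all genes fell with them: 14, 42 and 21 of 14151 genes passed in the first 3 of these runs and 424 without control replicate 3, so nothing about the transferases is read from the counts of 0. Without knockdown replicate 1, 3.51% of all genes were called higher. The median log2 fold change of the 10 ranged from 0.59 to 0.85 over those 6 runs.

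**Figure D1:**
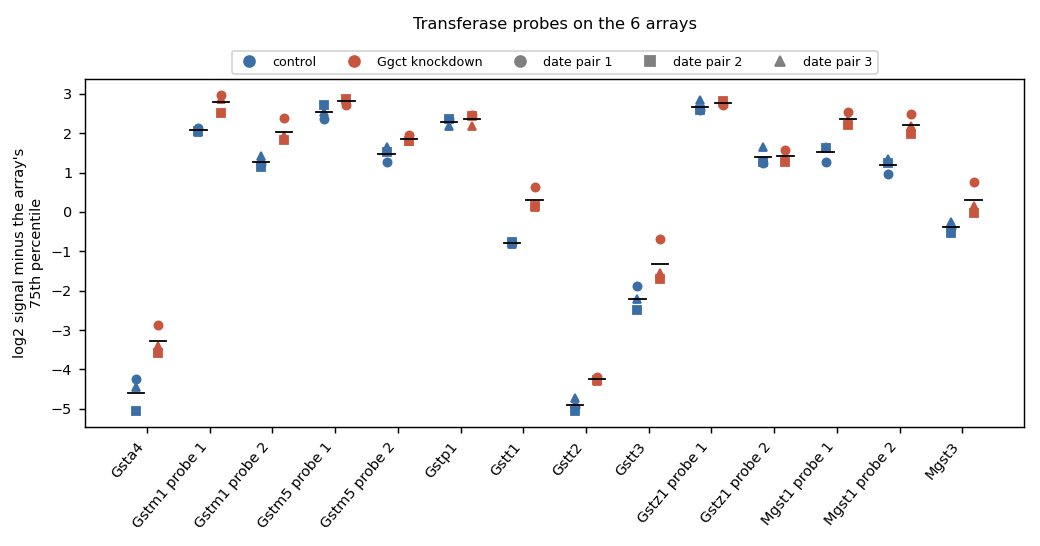
Each of the 14 transferase probes is a column, with log2 signal minus the array's 75th percentile on the vertical axis, points for the 3 control and 3 knockdown arrays (shape gives the date pair) and a bar at each group mean. Knockdown points lie above all control points for 11 of the 14 probes, and the groups overlap for Gstp1 and both Gstz1 probes.

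Gsta4 encodes the alpha-class enzyme specialised in conjugating 4-hydroxynonenal, an aldehyde from lipid peroxidation, and showed the largest difference of the 10 on this scale with all 6 arrays. Its signal was -4.25, -5.06 and -4.45 on the control arrays and -2.87, -3.57 and -3.41 on the knockdown arrays. Every knockdown array was above every control array, and control replicate 2 was the lowest. The difference was 2.46-fold (log2 fold change 1.30 ± 0.26, SE; 95% interval 1.63-fold to 3.72-fold), and the 3 date pairs differed by 1.38, 1.49 and 1.04. The probe is dim: on its dimmest array it lay 0.23 log2 units above the lowest signal called well above background. With normexp background correction, whose offset shrinks differences of dim probes, the log2 fold change was 0.42, below those of Gstt1 (0.97), Mgst1 (0.88), Gstm1 (0.68), Gstt3 (0.65) and Mgst3 (0.63). Without control replicate 2 it was 1.07, beside 1.1 for Gstt1.

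Gstt1, a theta-class enzyme that acts on small halogenated compounds, had the next largest difference. Its control arrays were nearly identical, at -0.79, -0.77 and -0.81, and the knockdown arrays stood at 0.63, 0.15 and 0.12. The groups did not overlap, and knockdown replicate 1 was highest. The difference was 2.13-fold (log2 fold change 1.09 ± 0.16, SE), with 0.93 when knockdown replicate 1 was left out.

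The other theta-class genes were also higher on all knockdown arrays. Gstt3 had signals of -1.89, -2.50 and -2.20 in control and -0.70, -1.70 and -1.54 in knockdown, a log2 fold change of 0.88 ± 0.28 (SE), and it did not pass the threshold without the block. Its lowest knockdown value, replicate 2, was close to its highest control value, replicate 1. Gstt2 had signals of -4.95, -5.06 and -4.73 in control and -4.19, -4.27 and -4.29 in knockdown, a log2 fold change of 0.67 ± 0.13 (SE). Gstt2 was well above background on 2 of 3 control arrays and all 3 knockdown arrays, so its fold depends on signal near the background. With normexp its log2 fold change was 0.06. Without knockdown replicate 1, Gstt3 was at 0.58 and Gstt2 at 0.63.

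The microsomal genes were both higher in knockdown. Mgst1 encodes an abundant membrane enzyme of the endoplasmic reticulum and outer mitochondrial membrane with transferase and peroxidase activity. Its brighter probe read 1.27, 1.63 and 1.65 in control and 2.55, 2.21 and 2.34 in knockdown, and its second probe 0.96, 1.25 and 1.35 against 2.48, 1.97 and 2.18. Neither probe showed an overlap, and control replicate 1 was the lowest array on both. The log2 fold changes were 0.85 ± 0.16 and 1.03 ± 0.18 (SE), so the probes agreed within their errors.

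Mgst3, a membrane enzyme with peroxidase and leukotriene C4 synthase activity, read -0.40, -0.53 and -0.25 in control and 0.77, -0.04 and 0.16 in knockdown. All knockdown arrays were above control, with replicate 1 well above the other two. The log2 fold change was 0.69 ± 0.21 (SE), and 0.45 without knockdown replicate 1, and the gene did not pass the threshold in either fit.

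The mu-class genes differed by unequal amounts. Gstm1, a major cytosolic transferase of many tissues, read 2.13, 2.06 and 2.04 in control and 2.97, 2.51 and 2.86 in knockdown on its brighter probe, and 1.22, 1.15 and 1.42 against 2.38, 1.83 and 1.92 on the other. Both probes separated the groups, with log2 fold changes of 0.71 ± 0.15 and 0.78 ± 0.18 (SE). Gstm5 read 2.37, 2.71 and 2.55 in control and 2.71, 2.87 and 2.85 in knockdown on its brighter probe. Its lowest knockdown array lay only just above its highest control array, and neither of its probes passed. The Gstm5 log2 fold changes were 0.27 ± 0.13 and 0.37 ± 0.15 (SE), the first with an interval from 0.98-fold to 1.49-fold. Mu-class transcripts are similar in sequence, and cross-hybridisation among their probes was not tested.

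Gstp1 and Gstz1 showed no separation of the groups. Gstp1, the pi-class enzyme prominent in many tumours, read 2.35, 2.35 and 2.19 in control and 2.47, 2.43 and 2.19 in knockdown. Its log2 fold change was 0.07 ± 0.13 (SE), with a 95% interval of 0.85-fold to 1.29-fold. Gstz1, the zeta-class enzyme that isomerises maleylacetoacetate in tyrosine breakdown, read 2.58, 2.59 and 2.85 in control and 2.71, 2.82 and 2.77 in knockdown on its brighter probe. The Gstz1 log2 fold changes were 0.09 ± 0.12 and, on the dimmer probe, 0.02 ± 0.16 (SE), with a 95% interval of 0.87-fold to 1.30-fold for the first. Both genes were bright, at least 6.3 log2 units above the background limit on each probe and array.

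**Figure D2:**
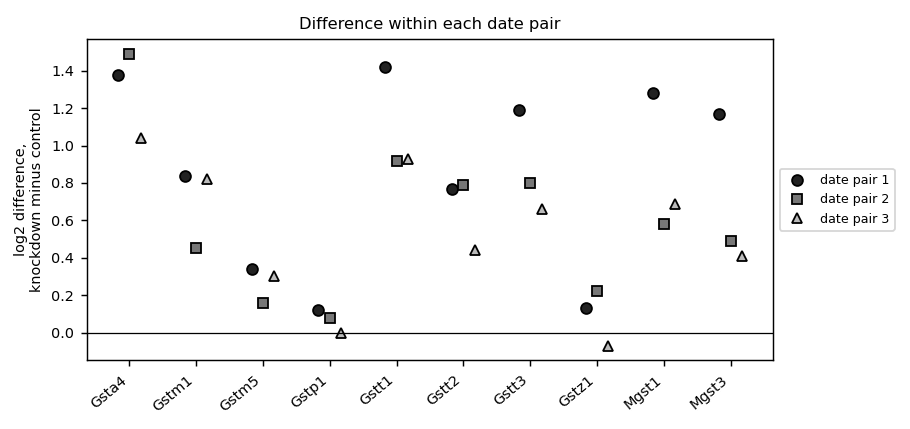
The log2 difference, knockdown minus control, within each of the 3 date pairs is plotted for the brightest probe of each gene. Gsta4 and Gstt1 lie highest, Gstp1 and Gstz1 lie near 0, and pair 1 gives the largest difference for 7 of the 10 genes.

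9 of the 10 genes were higher in all 3 pairs, against 26.3% of all genes, and the exception was Gstz1, which differed by 0.13, 0.22 and -0.07. Gstp1 is counted among the 9 with differences of 0.12, 0.08 and 0.0, the last above 0 only before rounding. Pair 1 gave larger differences than the others, with medians over the 10 genes of 1.0, 0.54 and 0.55 for pairs 1 to 3 and of 0.09, 0.0 and -0.03 over all genes. Knockdown replicate 1 was the highest knockdown array for 8 of the 10 genes, for 47.1% of all genes and for 73.2% of genes called higher. On the first principal component of all genes this array lay at 46.6, while knockdown replicates 2 and 3 lay at 9.1 and 15.4 and the control arrays at -30.5 to -15.0. Its part in the differences is given by the values without it, under which the median of the 10 was 0.59.

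Each probe was also fitted as a feature of its own over 31804 probes, which counts both probes of a gene. 2 of the 14 transferase probes passed an adjusted p below 0.05, that of Gstt1 and the dimmer probe of Mgst1, against 1.16% of all probes called higher. 11 of the 14 probes separated the groups, against 14.5% of all probes. With the replicate block 0 of 31804 probes passed in limma, while 5572 had an unadjusted p below 0.05.

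The remaining transferase and MAPEG genes were taken as a list by function, 21 genes of which 19 were named on the array and 15 tested. 5 were higher past the threshold, 0 were lower and 10 did not pass, with a median log2 fold change of 0.36, beside 4.57% of all genes called higher and 2.84% called lower. With the replicate block 4 passed, Gstm4, Gstm6, Mgst2 and Alox5ap, beside 2.78% of all genes called higher. The 5 that rose were 4 further mu-class genes and Mgst2, a microsomal enzyme that can make leukotriene C4. Gsta2, Gstt4 and Hpgds were above background on no array, Gsta3 on too few to be tested, and Gsta1 and Gsta5 were not matched to a probe by accession.

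Gstm2 gave the tightest groups, at 2.65, 2.69 and 2.67 in control and 3.26, 3.25 and 3.24 in knockdown. Gstm6 rose by a log2 fold change of 0.85 ± 0.14, Gstm4 by 0.77 ± 0.15, Gstm3 by 0.75 ± 0.15 and Gstm2 by 0.58 ± 0.10 (SE). Gstm7 was at 0.57 ± 0.26 (SE) with overlapping groups. Mgst2 read 3.38, 3.70 and 3.47 in control and 4.21, 4.41 and 4.43 in knockdown, with no overlap and a log2 fold change of 0.83 ± 0.14 (SE). Alox5ap, which presents arachidonic acid to 5-lipoxygenase, was at 1.06 ± 0.30 (SE) and passed with the block alone.

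Besides Gstm7 and Alox5ap, 8 genes of the list did not pass. The other pi-class genes, Gstp2 and Gstp3, were at -0.01 ± 0.13 and 0.12 ± 0.20 (SE), so 0 of 3 pi-class genes passed. Cross-hybridisation among the pi-class probes was not tested, so their values may not be independent. The omega-class genes Gsto1 and Gsto2, which can reduce dehydroascorbate, were at 0.23 ± 0.12 and -0.35 ± 0.15 (SE), and the mitochondrial kappa-class gene Gstk1 was at 0.36 ± 0.21 (SE). Gstcd, Ltc4s and Ptges were at -0.22 ± 0.17, 0.16 ± 0.14 and 0.20 ± 0.13 (SE). By class, 5 of 7 mu, 2 of 3 theta, 2 of 3 Mgst and the single alpha gene tested passed, and none of the pi, omega, kappa or zeta genes, beside 4.57% of all genes called higher and 7.41% called in either direction. With 1 to 3 genes in each of the latter classes, a count of 0 says nothing about the class. The difference between classes was not tested, and Gstp3 was above background on only 3 of the 6 arrays.

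**Figure D3:**
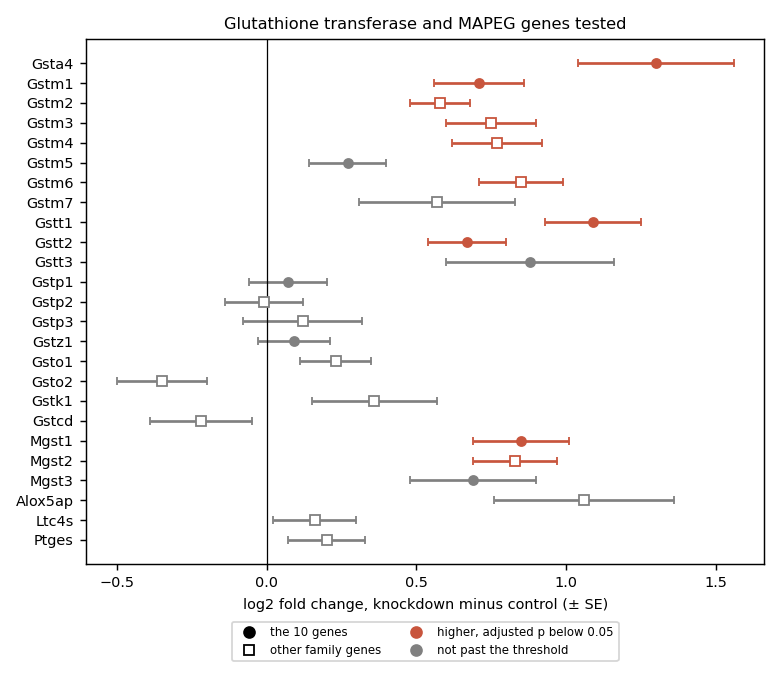
Log2 fold changes, knockdown minus control, with their standard errors are shown for the 25 transferase and MAPEG genes tested, filled circles for the 10 genes and open squares for the rest. The 10 that passed the threshold (red) lie between 0.58 and 1.30 and come from the alpha, mu, theta and microsomal classes, and the pi-class genes lie within 0.12 of 0.

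Position on the chromosome was not used in choosing the genes. The 3 nearest tested genes on each side of each gene were read from the RefSeq table of GRCm38.p6, which gave 39 neighbours that are not transferases and 10 that are. Of the 39, 2 were called higher (5.1%, beside 4.57% of all genes) and 0 lower, and their median log2 fold change was 0.04. The theta cluster on chromosome 10 lies between Ddt, which encodes D-dopachrome tautomerase, and Mif, a cytokine gene. Ddt was at 0.17 ± 0.14 and Mif at -0.07 ± 0.12 (SE), both with overlapping groups, while the 3 theta genes between them were at 0.67 to 1.09. The 7 mu-class genes on chromosome 3 lie between Csf1, at 0.10 ± 0.20, and Ampd2, at -0.31 ± 0.11 (SE). The groups of Csf1 overlapped, while Ampd2 was below control on all 3 knockdown arrays, as were 14.6% of all genes. Within the mu cluster Gstm5, at its edge next to Csf1, had the smallest log2 fold change, 0.27, and the rest were at 0.57 to 0.85. The 2 neighbours that rose were Lrrc75b, at 1.79 ± 0.35, and Slco1a5, an organic anion transporter gene near Mgst1, at 1.12 ± 0.13 (SE). Lrrc75b lies 3 tested genes from Gstt3, on the Ddt side of the theta cluster, and differed more than any theta gene. Ddt, Mif, Csf1 and Ampd2 were named after their values were seen.

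**Figure D4:**
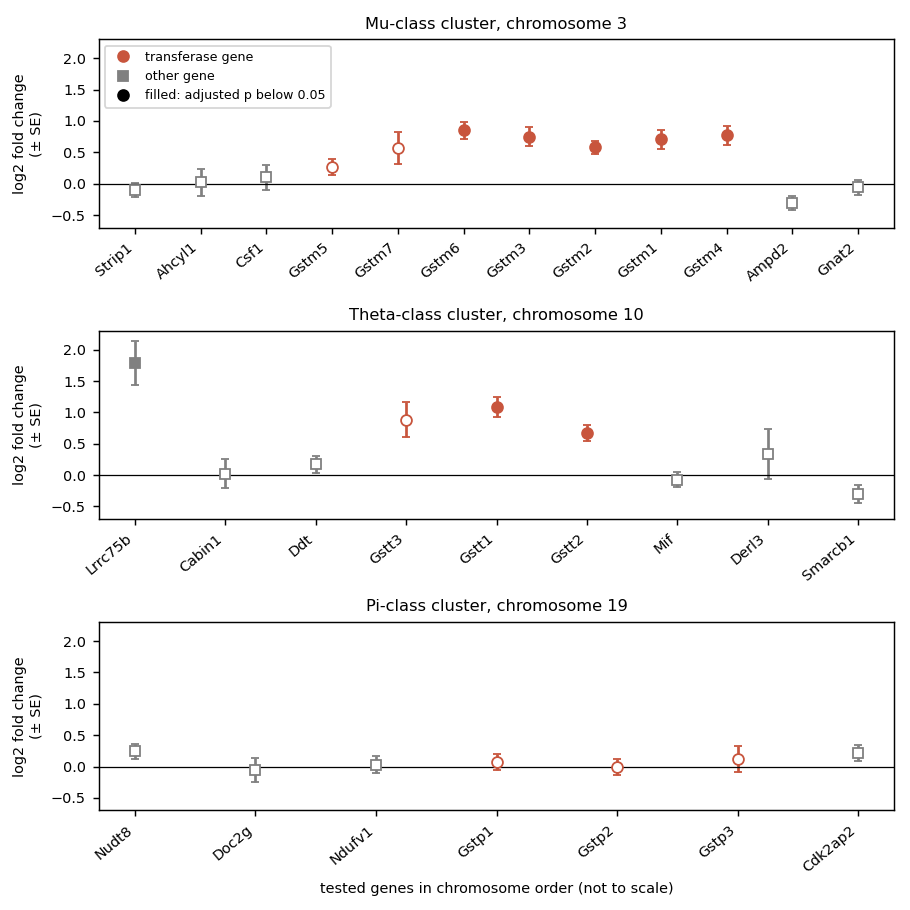
Log2 fold changes (± SE) are drawn in chromosome order for the mu, theta and pi clusters and the nearest tested genes, circles for transferases and squares for others, filled where the adjusted p was below 0.05. Transferases of the mu and theta clusters lie above 0 while the genes directly beside them, Csf1, Ampd2, Ddt and Mif, lie between -0.31 and 0.17, and the pi cluster lies near 0 throughout. Lrrc75b, further out on the Ddt side of the theta cluster, lies at 1.79, above the theta genes.

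Genes that supply, use and clear glutathione changed in both directions in the same fit, in which 7.41% of all genes were called. Of 17 tested genes of glutathione synthesis, recycling and breakdown, 1 rose and 2 fell, with a median of -0.12. Cbs, which makes cystathionine on the route to cysteine, rose (1.38 ± 0.14, SE). Chac1, which cleaves glutathione, was at -1.49 ± 0.32 (SE) and did not pass with the block, and the other fall was Ggct. Of 9 tested glutathione peroxidases and peroxiredoxins, 0 passed, with log2 fold changes from -0.01 to 0.48 and 5 of the 9 above control on all knockdown arrays, beside 17.8% of all genes.

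Of 11 genes that export or process glutathione conjugates, Abcc5 (0.81 ± 0.17, SE) and the aminoacylase gene Acy3 (0.74 ± 0.16, SE) rose and the exporter gene Abcc4 fell (-0.66 ± 0.14, SE). None of these passed with the replicate block. Of 21 other detoxification enzymes 1 passed, Cyp1b1, a cytochrome P450 gene known to be induced through the aryl hydrocarbon receptor. It was above background on all 3 knockdown arrays and on no control array, so it met the filter only through the knockdown group. For that reason nothing is read from its call. Cyp1b1 did not pass with the block. Its knockdown mean was 1.79-fold above the control mean when each control signal was raised, where lower, to a background limit. That limit was the array's lowest signal well above background over all probes. It is not specific to the Cyp1b1 probe, so the fold is not a lower bound and carries no error. Of 16 tested regulators of detoxification genes, 0 rose and Mafk, a small Maf partner of NRF2, fell (-0.49 ± 0.11, SE), again without passing under the block.

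The genes whose values over the 6 arrays lay nearest to those of Gsta4, after each gene's mean was taken off, were Pstpip1, Zfp467, Irgm2, Hif3a and Vdr, at root mean square differences of 0.101 to 0.137 log2 units. Vdr, the last of these, was well above background on 0 of 3 control arrays, so its control values are background signal. Nearest to Gstp1 were Slc25a39, Zfp648 and Gpr157, at 0.029 to 0.034. Such nearness over 6 arrays in 2 groups is a description only.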

How the data were processed

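The scanner files hold spot intensity values that the authors extracted with Agilent Feature Extraction 11.0.1.1, background-subtracted, per the file headers. The deposited value table holds log2 values; in each column they equalled log2 of the processed signal minus 1 constant (9.05 to 9.75) within 0.01, with no centring of genes, as found by comparison, and column medians of -4.46 to -4.21.

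Outlier spots were left out, spots of a probe averaged as log2, and each array's 75th percentile over probes subtracted. Of 56605 probes read, 12 were left out as outliers. Accessions matched 58.3% of the rest to RefSeq symbols of GRCm38.p6. A probe was kept if 3 or more of the 6 arrays called it well above background, and the brightest probe stood for a gene, also where probes disagreed. The groups were fitted in limma 3.58.1 (R 4.3.3; lmFit, eBayes, two-sided), once over genes and once over probes, which gave the errors of second probes, with Benjamini-Hochberg adjustment, tested on simulated data. Python 3.11.15 and pandas 2.3.3 read the files. Date pairs come from the titles. Deviations of paired arrays from their group means correlated at -0.02, 0.55 and -0.20. Alternatives were normexp, quantile normalization, other percentiles and filters, the deposited table, mean of probes, an intensity trend, the pair block and each array left out. All arrays share 1 slide and scan. The files hold no gMeanSignal column, so normexp used the median signal.

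The genes and lists were chosen with earlier results of these data known. Named were the 10 genes, all other transferases tested, up to 4 genes per pathway list past the threshold, Ggct, neighbours past the threshold or directly beside a cluster (the latter chosen after their values were seen), and the genes of nearest pattern.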

Additional observations from a re-analysis of the deposited data

How the results depend on the processing

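No log2 fold change of a called gene among the 10 changed sign under any of the alternatives run, and the median of the 10 stayed at 0.52 to 0.85. Counts moved more. Of 14151 genes, 1048 passed (646 higher, 402 lower), 357 without a filter on dim probes (22907 genes tested) and 558 with the replicate block, 487 of them among the 1048. With one array left out, 14 to 840 genes passed, and 2581 to 3353 had an unadjusted p below 0.05. Of all probes, 556 passed, 58 without a filter, 1071 with an intensity trend, 0 with the block and 0 to 192 with one array left out, where 4419 to 5845 had an unadjusted p below 0.05. Of the 10 transferases, 5 passed, 3 with normexp (Gstm1, Gstt1 and Mgst1), 1 without a filter (Gstt1), 3 with the block and 0 to 4 with one array left out, where 6 or 7 had an unadjusted p below 0.05. The unfiltered runs tested more features, and the runs that left out an array had fewer arrays. Whether either moved the counts was not tested, nor was any other reason for the shifts. Among the 15 alternatives Gstt1 passed in 12, Mgst1 in 10, Gsta4 in 9, Gstm1 in 8 and Gstt3 in 1, and Gstt2 in 5 of the 14 in which it was tested. Gstm5, Gstp1, Gstz1 and Mgst3 passed in 0 of 15. The median of all genes stayed within -0.026 to 0.036. Gsta4 and Gstt2 are limited by signal near background.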

Other observations

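Ptges, a MAPEG enzyme that makes prostaglandin E2, gave different values on its 3 probes. Its brightest probe, which stood for the gene, was at 0.20 ± 0.14 (SE), and the dimmer probes at 0.70 ± 0.17 and 0.90 ± 0.16 (SE), the last past the threshold over all probes. On all 3 probes every knockdown array was above every control array. Gstm6, by contrast, was at 0.85 ± 0.15 and 0.78 ± 0.19 (SE) on its pair of probes, and Gsto1 at 0.23 ± 0.13 and 0.30 ± 0.18 (SE).

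Counting the 10 genes and the other 15 tested together, 16 of 25 transferase and MAPEG genes were above control on all knockdown arrays and 1, Gsto2, was below, beside 17.8% and 14.6% of all genes. The 10 were chosen with this comparison known, so nothing is read from the count. The summed linear signal of the 10, in multiples of the 75th percentile, was 24.7 to 26.6 in control and 32.6 to 36.4 in knockdown.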
